A study of Mus musculus with 4 samples.

Results

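The 7 genes described here make, load and receive GABA, the main inhibitory transmitter of the adult brain. Gad1 and Gad2 encode the glutamate decarboxylases GAD67 and GAD65, which form GABA from glutamate. Slc32a1 encodes VGAT, the transporter that fills synaptic vesicles with GABA or glycine. Gabra2, Gabra6, Gabrb1 and Gabrg3 encode subunits of the GABA-A receptor, a chloride channel of 5 subunits that opens when GABA binds. Members were all probe sets of the array whose annotation gave 1 gene symbol equal to one of these names, whatever their level. This gave 8 of 12488 probe sets, for 7 of 8251 genes, with 2 for Gabra6 and 1 for each other gene.

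The samples are total RNA of the CA1 field of the hippocampus of C57BL/6J males, young mice that had only been handled and were otherwise untreated, with 1 array each at 1, 2, 4 and 6 hr. The hour counts, per the labels, from the last shock of a separate set of experimental mice, which were not analysed here. The number of mice behind each array was not stated in the labels. Since each time has 1 array, time and any other difference between these 4 samples cannot be told apart, and no 2 times can be tested against each other.

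As background, the GABA neurons of CA1 are local interneurons. They hold Gad1, Gad2 and Slc32a1 mRNA, while the receptor subunits belong mostly to the cells that receive their input, pyramidal neurons among them. Most GABA-A receptors join alpha, beta and gamma subunits. Gabra2 is a major alpha subunit of the hippocampus, Gabra6 is known for its restriction to cerebellar granule cells, and Gabrg3 is a minor gamma subunit. In bulk tissue, fewer cells of a type and less RNA per cell cannot be told apart.

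The 7 genes lie on 4 chromosomes, per the RefSeq annotation (GRCm38.p6). Gad1, Gad2 and Slc32a1 are all on chromosome 2 but are not neighbours. Gabra2 and Gabrb1 share a cluster on chromosome 5 with Gabrg1 and Gabra4, Gabra6 lies beside Gabrb2 on chromosome 11, and Gabrg3 lies beside Gabra5 on chromosome 7. The 250 bases before the RefSeq start are printed for 4 genes. Gad1, Gad2 and Slc32a1 are shown because all 3 were highest on the same array, and Gabra2 because it had the widest range. The windows are chr2:70561879-70562128 (+ strand) for Gad1, chr2:22622077-22622326 (+ strand) for Gad2, chr2:158610508-158610757 (+ strand) for Slc32a1 and chr5:71095850-71096099 (- strand) for Gabra2. They are written 5′ to 3′ along the gene, and capitals mark a match to one of the 4 motifs named after them.
Gad1: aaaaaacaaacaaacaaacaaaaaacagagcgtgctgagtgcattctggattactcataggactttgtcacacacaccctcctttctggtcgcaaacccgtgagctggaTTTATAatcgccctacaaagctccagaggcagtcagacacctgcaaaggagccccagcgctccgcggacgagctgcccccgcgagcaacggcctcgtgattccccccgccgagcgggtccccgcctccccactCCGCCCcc
Gad2: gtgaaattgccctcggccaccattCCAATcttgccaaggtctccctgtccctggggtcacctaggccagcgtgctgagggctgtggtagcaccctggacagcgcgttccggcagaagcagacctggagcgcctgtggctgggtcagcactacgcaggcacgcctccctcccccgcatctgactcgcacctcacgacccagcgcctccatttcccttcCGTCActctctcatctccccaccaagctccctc
Slc32a1: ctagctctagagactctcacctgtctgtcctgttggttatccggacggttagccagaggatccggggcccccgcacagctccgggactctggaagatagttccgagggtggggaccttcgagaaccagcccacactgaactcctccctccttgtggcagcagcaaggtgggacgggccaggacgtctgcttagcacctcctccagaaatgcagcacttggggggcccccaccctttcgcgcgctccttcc
Gabra2: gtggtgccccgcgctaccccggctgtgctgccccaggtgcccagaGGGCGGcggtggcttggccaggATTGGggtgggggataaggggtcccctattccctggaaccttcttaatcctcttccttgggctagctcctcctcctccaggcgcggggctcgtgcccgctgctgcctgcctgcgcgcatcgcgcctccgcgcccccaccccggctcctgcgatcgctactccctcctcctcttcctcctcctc

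The motifs were searched on both strands and no matches overlapped in these windows. The GC box GGGCGG was present in 32.7% of all 32851 RefSeq windows of this length, the TATA box TATAAA in 12.4%, the CCAAT box CCAAT in 33.8% and the cAMP response element half-site TGACG in 17.8%. The Gad1 window held a GC box 8 bases and a TATA box 141 bases before the start, both on the opposite strand. That of Gad2 held a CCAAT box and a half-site, and that of Gabra2 a GC box and a CCAAT box. The Slc32a1 window held none of the 4. No motif was present in all 3 windows of the genes for GABA synthesis and loading. Their GC content was 58.0% for Gad1, 64.0% for Gad2 and 62.4% for Slc32a1, and that of Gabra2 was 70.0%, beside a median of 52.4% over all windows. A match is a description of letters and not a binding site.

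The values are scaled intensities. Those under 54.6, the 25th percentile of all values (the floor), have no order here, and folds are on the floored scale. The median intensity was 173 on the 2 hr array and 198 to 204 on the others. The ratio of 3′ to 5′ signal, a measure of RNA and labelling integrity, spanned 2.99 to 3.44 for Actb and 4.84 to 7.56 for Gapdh, where the 2 hr array was highest. The hybridisation control CreX, a transcript added to the labelled sample, read 84234, 60218, 55575 and 77986 at 1, 2, 4 and 6 hr. The 4 yeast control probe sets, which have no mouse target, read between 7.2 and 154. Probe sets differ in background, so this range is a scale and not a threshold.

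The genes that make and load GABA were highest at 2 hr in all 3 cases, 1.12 to 1.16-fold above the next array. Gad1, which supplies most GABA in the brain, read 4153, 4729.6, 3638 and 3686 at 1, 2, 4 and 6 hr. Its 1 and 2 hr arrays lay above its 4 and 6 hr arrays, and the highest was 1.30-fold above the lowest. Over the 4 arrays it averaged 4052 ± 508 (SD, n = 4, 1 array at each time and not replicates), which is a coefficient of variation of 12.5%.

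Slc32a1 read 2345, 3841, 3417 and 2645 at 1, 2, 4 and 6 hr. The 2 middle arrays were the high ones, and its range was 1.64-fold. It thus differed from Gad1 at 1 hr, where Slc32a1 was at its lowest, 0.36 log2 units below its own mean over the arrays, and Gad1 was 0.04 above its own. At 2 hr the departures from the own mean were 0.35 log2 units for Slc32a1, 0.35 for Gad2 and 0.23 for Gad1.

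Gad2, whose enzyme is enriched at axon terminals, read 121, 139.6, 114 and 74.6 at 1, 2, 4 and 6 hr. The 6 hr array stood lowest, 1.53-fold under the next, and the range was 1.87-fold. It was 2.18-fold after quantile scaling and 2.14-fold at a common median. These values lie within the range of the yeast controls, and detection calls were not used here, so whether this probe set was above background is unknown. The closest pair among these 3 genes was Gad1 and Gad2, whose values about their own means differed by a root mean square of 0.25 log2 units over the 4 arrays. It was 0.27 for Gad1 and Slc32a1.

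The shared high array of the 3 genes was kept under quantile scaling. Scaling to a common median could not have changed it. The 2 hr array had the lowest median, so that scaling raises it relative to the others. Among the 7636 probe sets with all 4 values above the floor, 24.3% were highest at 2 hr. The lowest array of Gad1 was the 4 hr one as deposited and at a common median, and the 6 hr one after quantile scaling. Of interneuron markers, 3 of 21 tested genes were highest at 2 hr, with a median difference of -0.01 log2 units from the other 3 arrays, beside -0.09 over all probe sets tested. Their summed level was 33643, 32374, 36120 and 32264 at 1, 2, 4 and 6 hr. Cck was its largest part, at 12414, 11337, 13694 and 12730.5, so the sum follows the brightest genes of the list. Of CA1 pyramidal neuron markers, 4 of 7 tested genes were highest at 2 hr, with a summed level of 7995, 10166, 7974 and 8375. Dcn, at 2882 at 1 hr and 3935 at 2 hr, and Wfs1, at 1753 and 2594, led that rise. Man1a was among the 4, but its other probe set was lowest at 2 hr (222.5), so its probe sets disagreed. The Gapdh ratio of the 2 hr array was the highest of the 4, at 7.56. The part of these markers or of the Gapdh ratio in the values of the 3 genes was not tested.

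**Figure D1:**
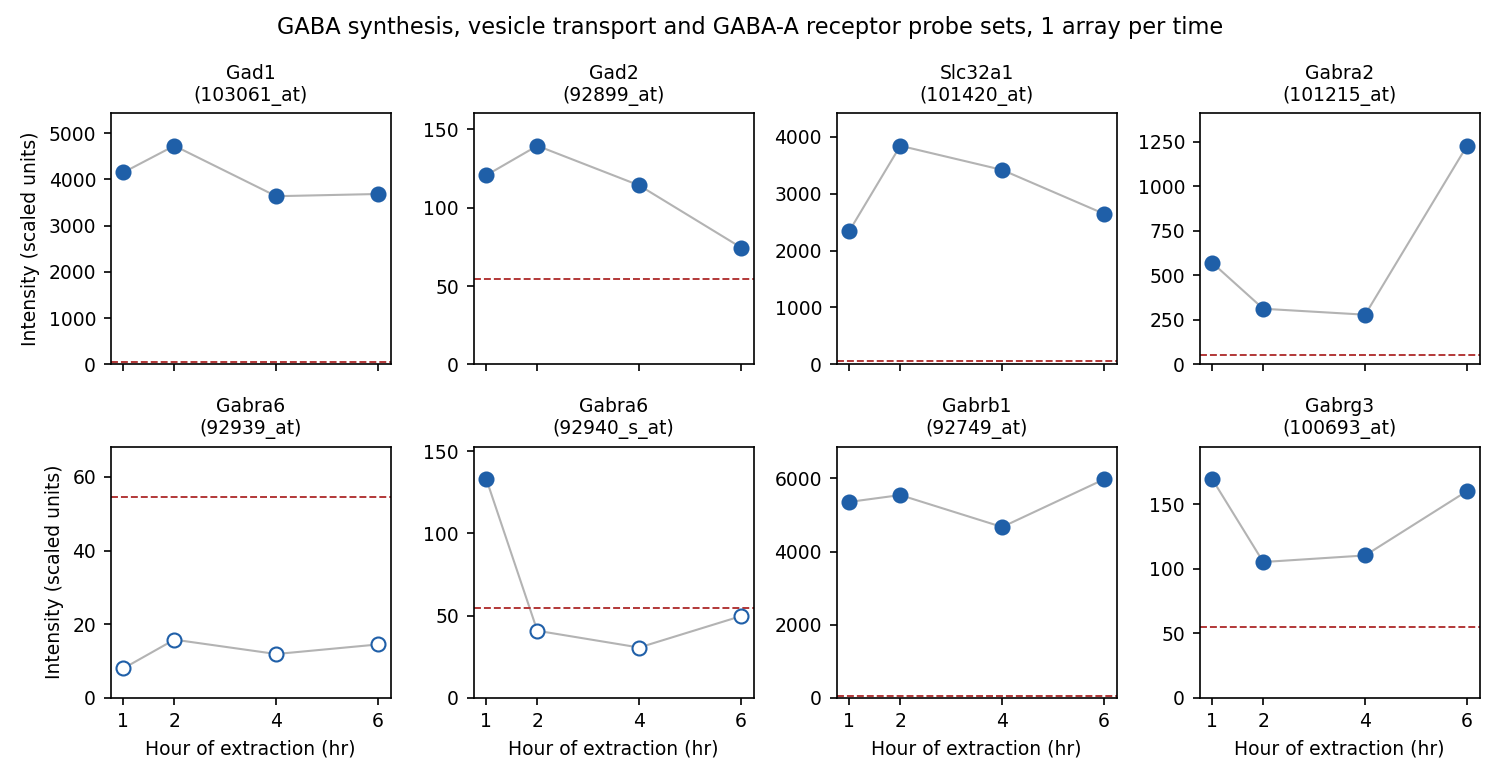
Scaled intensity (linear axis from 0, a separate scale for each panel) of the 8 probe sets against the hour of extraction, with 1 array per point. Filled points lie above the floor of 54.6 (dashed line) and open points under it. Gad1, Gad2 and Slc32a1 peak at 2 hr, Gabra2 stands out at 6 hr with 1228, and Gabra6 is above the floor in 1 of 8 values.

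Among the receptor subunits with all 4 values above the floor, Gabra2 had the widest range and Gabrb1 the narrowest. Gabra2 read 570.1, 312, 279 and 1228 at 1, 2, 4 and 6 hr. The 6 hr array stood 2.15-fold above the next highest, at 1 hr, and 4.41-fold above the lowest, at 4 hr. Over the arrays the values averaged 597 ± 440 (SD, n = 4), a coefficient of variation of 73.7%. The 6 hr array was highest and the 4 hr array lowest under all 3 scalings, with a range of 4.41 to 4.54-fold.

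Standing apart is used here of a probe set that differed on 1 array from every other array by 1 log2 unit (2-fold) or more in the same direction. Gabra2 did so at 6 hr, where 1.56% of 10992 probe sets tested stood above the others. On the same array the summed level of oligodendrocyte markers was 19955, against 25126 to 26458 on the others. Mobp, by the brightest of its 4 probe sets, made up most of that difference, at 9821 at 6 hr and 13671 to 14207 on the others. The other Mobp probe sets were lowest at 2 or 4 hr, so the probe sets disagreed. Among the 9 markers, 3 were highest at 6 hr. The summed level of interneuron markers was 32264, the lowest of the 4 and close to the 32374 at 2 hr. CreX was 77986 there and highest at 1 hr, the other high array of Gabra2. Their part in the Gabra2 value was not tested.

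Gabrb1, a beta subunit that pairs with alpha subunits in the receptor, read 5357, 5544, 4671 and 5975 at 1, 2, 4 and 6 hr. The arrays lay close together, with a range of 1.28-fold and a coefficient of variation of 10.1%, and the 4 hr array was lowest. Its highest array was the 6 hr one as deposited and after quantile scaling, and the 2 hr one at a common median. Gabra2 and Gabrb1 sit in the same chromosome 5 cluster, and their values about their own means differed by a root mean square of 0.76 log2 units. By this measure Gabrb1 lay nearest to Gad1 among the members, at 0.17 log2 units. The measure is small for any pair of probe sets with narrow ranges, and does not show a shared order. As deposited, Gabra2 and Gabrb1 were both highest at 6 hr. Gad1 was highest at 2 hr, and each of them was lowest at 4 hr.

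Gabrg3 read 169, 105, 110.2 and 160 at 1, 2, 4 and 6 hr. The 1 and 6 hr arrays were the high pair and the 2 and 4 hr arrays the low pair, with a range of 1.61-fold and an average of 136 ± 33.1 (SD, n = 4). The hybridisation controls divided the arrays in the same way. CreX spanned 55575 to 84234, and BioC, another of them, read 5040, 3623, 2634 and 4421 at 1, 2, 4 and 6 hr. Their part in the Gabrg3 values was not tested. The lowest Gabrg3 array was the 2 hr one as deposited and the 4 hr one under the other 2 scalings. Its 2 and 4 hr values lay within the range of the yeast controls, and its 1 and 6 hr values little above it. Whether this probe set was above background is unknown.

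Gabra6 was dim by both of its probe sets. The first read 8, 15.8, 11.9 and 14.5 at 1, 2, 4 and 6 hr, all under the floor, and could not be tested. The second, of a kind whose probes match more than 1 transcript, read 133, 40.8, 30.6 and 49.7. It was above the floor only at 1 hr, where it stood at least 2.43-fold above the others, and 2.28% of probe sets tested stood apart upward on that array. Of the 4 yeast controls, YEL018w, named after its values were seen, read 130.5 at 1 hr and 7.2 to 15.9 later, while the highest value of any of them was 154 at 4 hr. Its part in the Gabra6 values was not tested.

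The 2 Gabra6 probe sets were set beside other cerebellar markers, since a CA1 dissection should hold no cerebellar granule cells. Of 12 listed markers 8 were on the array and 6 of these had all 4 values above the floor, several of them also expressed elsewhere in the forebrain. Their summed level was 4916, 4535, 5263 and 4786 at 1, 2, 4 and 6 hr. Pvalb, a Purkinje cell marker that interneurons also express, made up most of it, at 3678, 3259, 3561 and 3283. The part of cerebellar tissue in the Gabra6 values was not tested. Gabrb2, the neighbour of Gabra6 on chromosome 11 and a widely expressed beta subunit of the brain, read 173, 45.1, 38.7 and 46.2. It too was above the floor only at 1 hr, by at least 3.17-fold.

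Whether any member changed steadily with time was tested with limma, as a linear slope per hr over all 10992 probe sets that had a value above the floor, with Benjamini-Hochberg adjustment. Of the 8 member probe sets 7 were tested and 0 passed, with a smallest limma adjusted p of 0.893 for Gad2. Over all probe sets 0% passed (smallest limma adjusted p = 0.875), and 594, or 5.4%, had an unadjusted p under 0.05, of which none was a member. Slopes were above 0 for 3 members and below 0 for 4, beside 50.8% above and 49.2% below 0 over all probe sets tested. The median slope was -0.00032 log2 units per hr for the members and 0.0015 for all.

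The largest slopes in size were those of Gabra2, Gabra6 and Gad2. For Gabra2 it was 0.23 ± 0.19 log2 units per hr (SE), with a 95% interval from -0.27 to 0.73 (limma adjusted p = 0.964), and it rested on the 6 hr array, without which it was -0.31. For the second Gabra6 probe set it was -0.20 ± 0.12 (interval -0.51 to 0.11, limma adjusted p = 0.932), and without the 1 hr array this probe set had no value above the floor. For Gad2 the slope was -0.15 ± 0.07 (interval -0.34 to 0.04). Gad1 and Gabrb1 had the narrowest intervals, -0.23 to 0.11 and -0.16 to 0.19 log2 units per hr. Those of Slc32a1 and Gabrg3 ran from -0.24 to 0.24 and from -0.24 to 0.27.

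**Figure D2:**
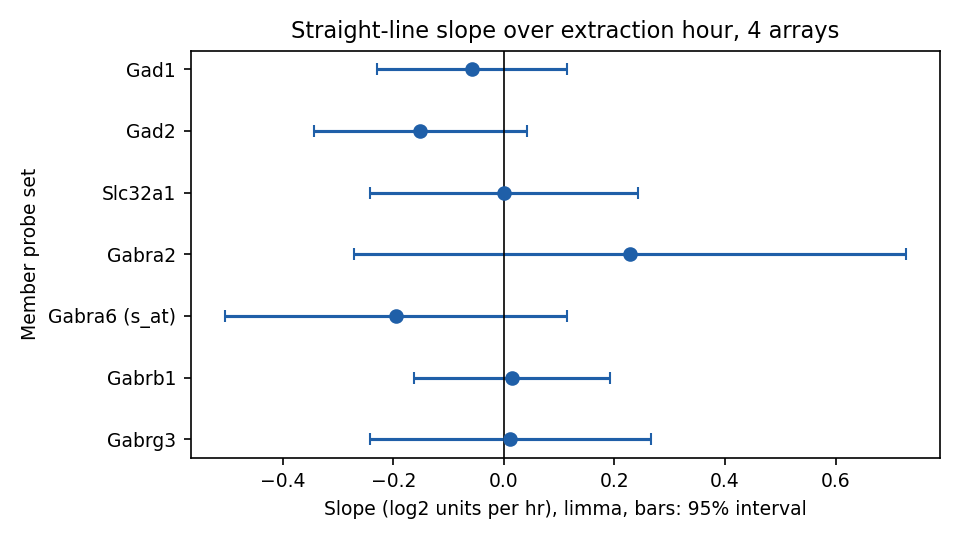
Slope in log2 units per hr (horizontal axis) for each of the 7 tested member probe sets, as limma estimates over 4 arrays with 95% intervals as bars. Every interval crosses 0, and that of Gabra2, from -0.27 to 0.73, is the widest.

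A range of at least 2-fold between the highest and lowest array was reached by 2 of 7 tested members (Gabra2 and the second Gabra6 probe set), or 28.6%, beside 33% of all probe sets tested. The median range was 1.64-fold for the members and 1.66-fold for all. The same 2 members stood apart on an array, 2 of 7 or 28.6%, beside 10.8% over all. With Gad2, 3 members had a 2-fold range under quantile scaling and at a common median. Both counts were 1 with the floor at the 40th percentile and without the 1 hr array. Without the 6 hr array 2 members had a 2-fold range and 1 stood apart.

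The 2 genes whose values over the 4 arrays were most like those of Gabra2 were Crx and Fgfr2. Likeness was the root mean square difference of log2 values about each probe set's own mean, and 6872 probe sets with 1 symbol were compared. Crx, a photoreceptor transcription factor, read 223, 151, 122 and 459.9 at 1, 2, 4 and 6 hr, at 0.14 log2 units from Gabra2. Fgfr2, a receptor for fibroblast growth factors, read 98.6, 60.1, 64.1 and 263, at 0.16. Only 5 probe sets lay within 0.25 log2 units, and 4 arrays limit what such a ranking can show.

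The other genes of GABA signalling were taken as 5 lists, of which 33 of 61 listed genes were on the array and 31 could be tested. After adjustment over all probe sets 0 rose and 0 fell (limma, smallest adjusted p = 0.875). Of the 31, 1 had an unadjusted limma p under 0.05, beside 5.4% of all probe sets tested. Slopes were above 0 for 9 and below 0 for 22, beside 50.8% and 49.2% over all probe sets tested. The median slope was -0.02 log2 units per hr, and 0.0015 over all. A 2-fold range was reached by 9 of the 31, or 29.0%, beside 33% of all.

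Other GABA-A subunits were dim. Of 15 listed, 6 were on the array under 1 symbol, 5 could be tested and none had all 4 values above the floor. Gabrg1, a gamma subunit of the chromosome 5 cluster, read 165, 124 and 92.5 at 1, 2 and 6 hr and was under the floor at 4 hr. The rho subunits Gabrr1 and Gabrr2, known best from the retina, were above the floor on 1 array (64.5 at 6 hr) and on 2 arrays (71.8 at 1 hr and 135 at 4 hr). Gabrd, the extrasynaptic delta subunit, was above it only at 2 hr (93.9), and Gabra3 on none.

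Genes for GABA supply, uptake and the GABA-B receptor had ranges under 2-fold by the brightest probe set of each gene, where it could be tested. Gabbr1, a subunit of the metabotropic GABA-B receptor, read 3114, 3525, 3941 and 2864 at 1, 2, 4 and 6 hr, a range of 1.38-fold with the 4 hr array highest. Glul, the astrocyte enzyme that makes the glutamine from which neurons form GABA, read 1450.1 at 4 hr, and 896, 758 and 845 at 1, 2 and 6 hr. A second Glul probe set read 127 at 6 hr and 449 to 515 on the other arrays, so the 2 disagreed. The GABA transporter Slc6a13 read 470, 475, 644 and 456 in time order, and the glutamine transporter Slc38a2 read 426, 501, 367 and 360.3. Slc6a12, another GABA transporter, was under the floor on all 4 arrays.

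The widest range of the 31 tested pathway genes was that of a chloride transporter. Slc12a5 encodes KCC2, which exports chloride from mature neurons and so sets the direction of GABA-A currents. It was under the floor at 1 and 2 hr (33.8 and 43.9) but 235 at 4 hr and 278 at 6 hr, so that the last array was at least 5.09-fold above both early ones. Its slope was 0.54 ± 0.11 log2 units per hr (SE) on the floored scale and did not pass (limma adjusted p = 0.875). The 3′ control for 18S ribosomal RNA separated the same arrays, at 1383 and 1150 at 1 and 2 hr, and 3325 and 3381 at 4 and 6 hr, while the 5′ control did not, at 440.4, 133, 289 and 572 in time order. Its part in the Slc12a5 values was not tested.

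The other chloride transporters had narrower ranges. Slc12a2, or NKCC1, which imports chloride, read 793, 1111, 989 and 707 at 1, 2, 4 and 6 hr, a range of 1.57-fold with both ends low. The potassium-chloride cotransporter Slc12a4 read 347 at 4 hr and 241 to 246 on the others. The chloride channel Clcn2 read 155, 154.5, 96.5 and 98.3 in time order. Slc12a3, best known from the kidney, was above the floor only at 1 hr (116).

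Of 19 listed genes of the inhibitory synapse 13 were tested, with 3 slopes above and 10 below 0. Over all probe sets tested 50.8% were above and 49.2% below 0. Gphn, or gephyrin, the scaffold under GABA-A and glycine receptors, read 717, 902, 774 and 903 at 1, 2, 4 and 6 hr, a range of 1.26-fold. The receptor-linked proteins Gabarap, Gabarapl1 and Gabarapl2 ranged 1.17, 1.13 and 1.24-fold. Nsf, the ATPase that recycles SNARE complexes and also binds Gabarap, read 11628, 7009, 4600.3 and 10702, with the 1 and 6 hr arrays high. Trak1, a trafficking adaptor for kinesin motors, read 1249, 2631, 2120 and 1994, lowest at 1 hr. Rdx, or radixin, which anchors a GABA-A subunit to actin, read 530.1, 656, 434 and 332, and Trak2 read 218, 278, 287 and 243.

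**Figure D3:**
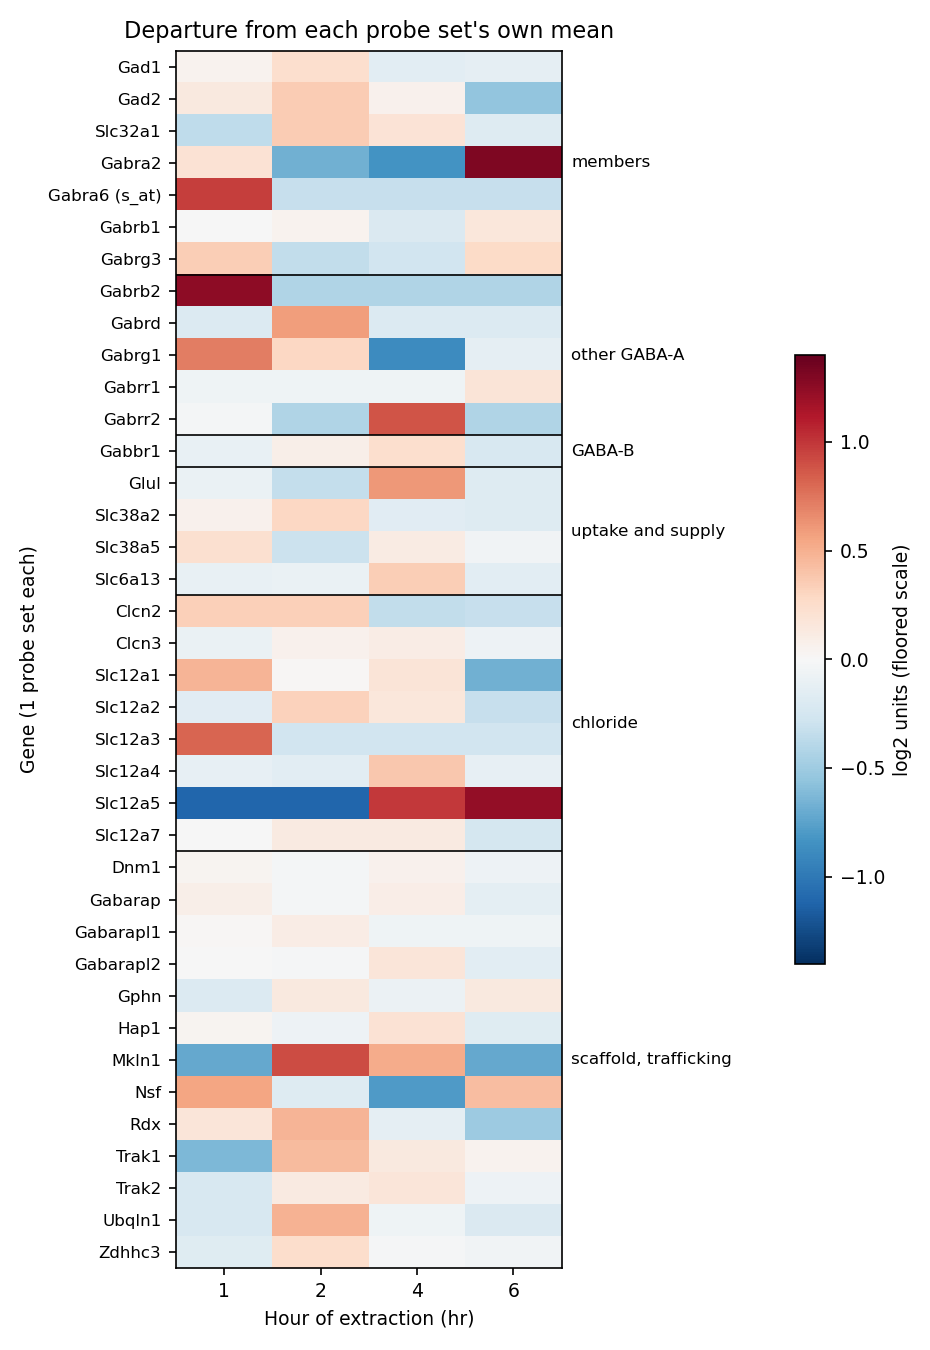
Departure of each probe set from its own mean over the 4 arrays, in log2 units on the floored scale, for the 7 tested members (top block) and the 31 tested genes of the 5 GABA pathway lists, with the hour of extraction across. Red is above and blue below the own mean. Gabra2 at 6 hr, 1.31 log2 units above its mean, and the late values of Slc12a5 are among the darkest cells, while Gabrb1 and the Gabarap genes are nearly white.

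Interneuron markers were compared with the members because the same cells hold Gad1, Gad2 and Slc32a1. Not all are particular to these cells. Calb1 is also listed here for CA3 and dentate neurons, and Pvalb for Purkinje cells. Of 23 listed genes 22 were on the array and 21 tested. Slopes were above 0 for 11 and below 0 for 10, beside 50.8% and 49.2% over all probe sets tested. None of these markers passed the threshold (smallest limma adjusted p = 0.893). Their median range was 1.61-fold, beside 1.64-fold for the members. Sst, the peptide somatostatin, read 8852, 8435, 9380 and 7309 at 1, 2, 4 and 6 hr. Its range was 1.28-fold, beside 1.30-fold for Gad1, but it was highest at 4 hr, where Gad1 was lowest as deposited. Calb2, or calretinin, read 146, 327, 246 and 433, a wider 2.96-fold. It was lowest at 1 hr, as Slc32a1 was, but highest at 6 hr, where Slc32a1 was under its own mean. Dlx2, an interneuron transcription factor, read 83.1 at 4 hr and 142 to 149 on the others. Erbb4, a neuregulin receptor of interneurons, was under the floor at 1 and 2 hr and read 195 and 63.3 at 4 and 6 hr. Maf was above the floor at 1 hr (125) and 4 hr (56.3).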

How the data were processed

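Total RNA of CA1 was measured on 4 single-channel oligonucleotide arrays. The authors deposited a linear intensity for each of 12488 probe sets on each array, and the summary method is not stated in the labels. The trimmed mean of each array (2% at each end) was 500.3, so arrays had been scaled before deposit. The number of arrays limits the precision. Of the probe sets 10855 had 1 gene symbol in the platform annotation, 396 had several and 1237 none, and all 8 member symbols matched RefSeq through the Entrez identifier. Promoter sequences are RefSeq's (GRCm38.p6).

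Values under 54.6 were set to it and log2 values taken. After removal of 66 control probe sets and 1430 at the floor on all arrays, 10992 were fitted, with no filter on level, by limma 3.58.1 in R 4.3.3 (lmFit, eBayes, slope per hr, two-sided, Benjamini-Hochberg at 0.05). The fit was tested on simulated data whose planted slopes were larger than any quoted here. That run therefore cannot show how well slopes of the size seen would be found. A gene of a list was taken by its brightest probe set. Named genes are all members, up to 2 genes at each end of the late-minus-early difference (4 and 6 hr minus 1 and 2 hr) in each of the 6 GABA, glycine and chloride lists and in the interneuron list, and the 2 nearest to a member with a 2-fold range. Gabrd, Gabra3, Slc6a12, Slc12a2, Gphn, the Gabarap genes and Sst were added for their known roles after their values were seen. Of the other 8 marker lists counts and sums are given, and single values for Mobp, Pvalb, Ttr, Dcn, Wfs1 and Man1a. Man1a was named because its probe sets disagreed, and the others and Cck as leaders of a sum or difference. All of these were named after their values were seen. Calb1 was named as a gene also on another list. The members and lists were chosen with earlier results of these data known. Alternatives were 2 other scalings, floors, filters, each array left out, other time scales and variance models.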

Additional observations from a re-analysis of the deposited data

How the results depend on the processing

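No call changed under any alternative run: 0 probe sets passed the trend test over all probe sets, the members and the lists, with 228 to 745 at an unadjusted p under 0.05 over all probe sets. Counts of members with a 2-fold range were 2 as reported, 3 under quantile scaling and at a common median, and 1 with the floor at the 40th percentile and with filters at the 40th and 60th percentile, and ran from 1 to 2 with an array left out. Counts standing apart were 2 as reported and 1 under the same 3 settings, and ran from 1 to 2 with an array left out (1 without the 1 hr and without the 6 hr array). The filters removed dim members from the test. Gad1, Gad2 and Gabra6 kept the sign of their slope in all alternatives that could be fitted, but that of Gad2 was -0.043 without the 6 hr array, and with the floor at the 40th percentile those of Gad2 and Gabra6 were -0.015 and -0.016. The slope of Gabrg3 reversed to -0.0057 under quantile scaling, -0.0010 at a common median and -0.050 on log2 of hours, and its late-minus-early difference was -0.0057. Slc32a1 reversed to 0.065 on log2 of hours and 0.0025 for late minus early, and Gabrb1 to -0.045 for the latter. With an array left out, slopes ran from -0.31 to 0.49 for Gabra2, -0.074 to 0.030 for Gabrb1, -0.17 to 0.15 for Gabrg3 and -0.13 to 0.14 for Slc32a1 log2 units per hr, with the sign turned without the 6 hr array in each and also without the 2 hr array for Gabrg3 and Slc32a1. No paired analysis was possible because each time has 1 array and the times share only 1 replicate number.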

Other observations

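Glycine, the other fast inhibitory transmitter, shares VGAT and gephyrin with GABA, and 3 of 6 listed genes were on the array and tested, 2 with a slope above and 1 below 0 and none past limma's threshold (smallest adjusted p = 0.999). Glrb, the beta subunit of the glycine receptor, read 3262, 4230.3, 1926 and 3500 at 1, 2, 4 and 6 hr, lowest at 4 hr as Gabrb1 was. Glra1, an alpha subunit, read 507, 277, 625 and 413, highest at 4 hr, so the 2 subunits did not share their order. Slc6a9, a glycine transporter of glia, read 1336, 1154, 1302 and 1349, a range of 1.17-fold.

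Of the markers of other cell types, those of the cerebellum included, 0 passed limma's test after adjustment (smallest adjusted p = 0.875). An unadjusted limma p under 0.05 was found for 5 genes of these lists, beside 5.4% of all probe sets tested. Over all probe sets tested 50.8% of slopes were above 0. Slopes were above 0 for 2 of 7 CA1 pyramidal neuron markers and for 5 of 8 cerebellar ones. CA3 and dentate neuron markers had 6 of 9 slopes above 0, at a summed level of 6269, 5064, 5185 and 5477 at 1, 2, 4 and 6 hr. Astrocyte markers had 6 of 9 slopes above 0, at a summed level of 24638, 26511, 23773 and 24608 at 1, 2, 4 and 6 hr. Oligodendrocyte markers had 4 of 9 slopes above 0, at a summed level of 26458, 26014, 25126 and 19955 at 1, 2, 4 and 6 hr. Microglial markers had 6 of 10 slopes above 0, at a summed level of 8677, 9047, 8258 and 9582 at 1, 2, 4 and 6 hr. Endothelial, mural and blood markers had 4 of 10 slopes above 0, at a summed level of 5970, 4033, 4514 and 4875 at 1, 2, 4 and 6 hr. Choroid plexus markers had 3 of 3 slopes above 0, at a summed level of 473, 630, 3689 and 658 at 1, 2, 4 and 6 hr, where Ttr alone read 140.3, 140.3, 3217 and 196.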
